A study of Homo sapiens with 6 samples.

Results

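Receptor tyrosine kinases and the growth factors that bind them were examined in KNS42 cells, a permanent line that came from a childhood glioblastoma. The group holds the 50 genes whose symbol is on a fixed list, 32 receptors (without the Eph and IGF receptors) and 18 ligands, out of 58174 genes in the deposited table. All 50 symbols were found once. The mRNA-seq compared 3 libraries of cells transfected with an siRNA pool directed against MSI1 (siMSI1) with 3 libraries of cells that received a control siRNA (siC), all collected 72 h later. Both groups are the same line and differ by the siRNA. No source states whether the libraries of a group came from separate cultures, so the p-values measure the spread between these libraries, which may be technical.

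A receptor tyrosine kinase spans the membrane and, when its ligand brings 2 receptor molecules together, phosphorylates its own cytoplasmic tail. The phosphorylated tail recruits adaptors such as GRB2 and SHC1, which switch on the RAS, RAF, MEK and ERK cascade and the PI3K and AKT pathway. Glioblastomas are known for amplified or overactive EGFR, PDGFRA and MET. MSI1 is an RNA-binding protein of neural stem and progenitor cells.

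The libraries held 14448513 to 18024080 reads on genes in siC and 13087025 to 14700593 in siMSI1. Values are given as FPKM (reads scaled to gene length and to a library size that was 0.977 to 1.025 times the reads on genes). Comparisons between genes therefore depend on the listed gene length, which may differ from that of the expressed mRNA. MSI1 was at 63.7, 61.9 and 66.9 FPKM in siC against 12.1, 12.3 and 11.2 FPKM in siMSI1, which left 18.5% of the siC level (log2 fold change −2.43 with a standard error, SE, of 0.07, limma adjusted p = 8.71e-06). Of 10 markers of glioma and neural cells, 8 were expressed well enough to be tested, and S100B and OLIG2 were listed at 0 in every library. Of these 8, 4 (50%) passed the test applied to all genes (adjusted p of at most 0.01), beside 11.0% of all tested genes. FABP7 (log2 fold change −1.12), SOX9 (−0.61) and CD44 (−0.46) were lower and GFAP (1.46) higher in siMSI1. The median over the 8 was −0.36. The part of this shift in the results for receptors and ligands was not tested. Of 19 markers of blood, endothelial, epithelial, neuronal, myelinating and liver cells, 8 never exceeded 3 reads and SYT1 alone was high enough to be tested. Their summed level was 4.51 to 5.48 FPKM in siC and 4.5 to 5.31 FPKM in siMSI1, and AIF1, RBFOX3 and MOG were at 0 throughout. SYT1 made up most of this sum. Without SYT1 the other markers summed to 1.16, 0.937 and 0.823 FPKM in siC against 1.30, 1.09 and 2.12 FPKM in siMSI1, with siMSI1 replicate 3 the highest and the groups overlapping, and the part of these cell types in the results was not tested. In bulk RNA, fewer cells of a type and less RNA per cell cannot be told apart.

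In control cells the most abundant member was the ligand PTN (pleiotrophin, a heparin-binding growth factor), at 140.5, 152.1 and 139.6 FPKM. PTN alone made up 50.7% ± 1.12 (SD, n = 3) of the summed FPKM of the 50 genes. This share depends on its short listed length of 1713 bases, against 9732 for PDGFRA. In unscaled reads PTN had 3606, 4714 and 3441 in siC, against 3002, 3781 and 2908 for PDGFRA. The highest receptor was PDGFRA, at 20.6, 21.5 and 20.8 FPKM, followed by FGFR1 at 11.4, 10.6 and 12.1 FPKM and by the collagen receptor DDR2 at 10.4, 10.6 and 9.15 FPKM. The values of FGFR1 and DDR2 overlapped, whereas each PDGFRA value lay above both. EGFR, one of the receptors known to be altered in glioblastomas, was low, at 0.581, 0.570 and 0.444 FPKM.

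**Figure D1:**
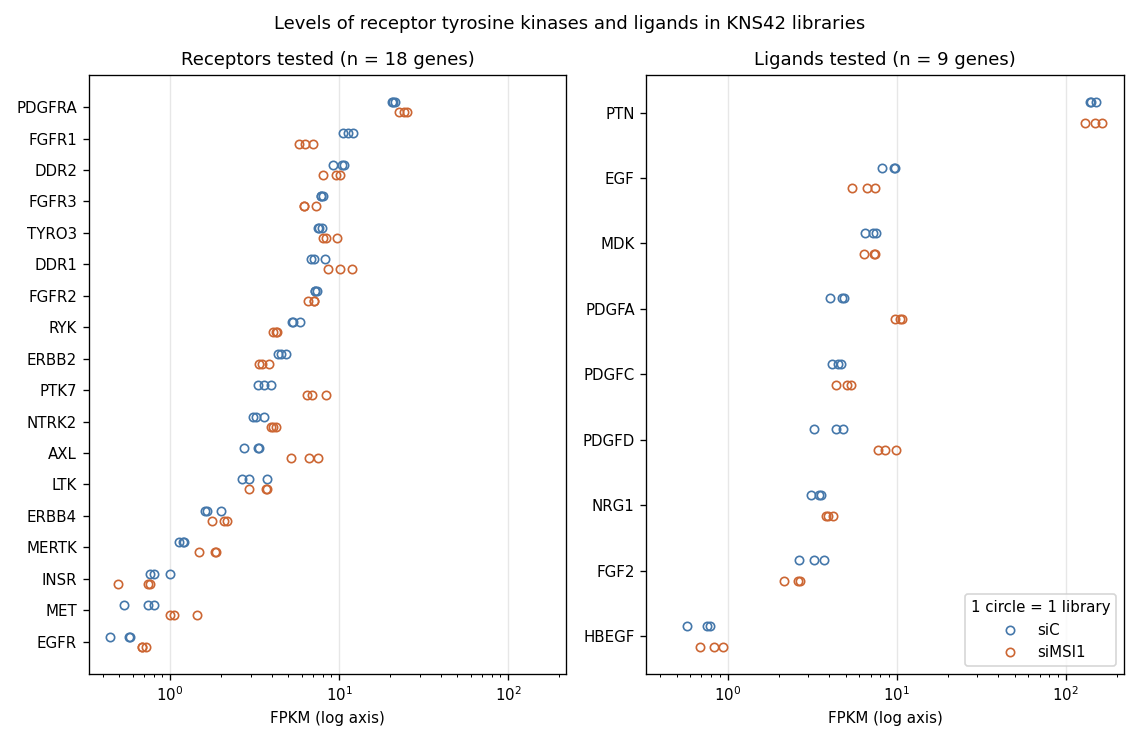
FPKM on a log axis of the 18 receptors and 9 ligands that were tested, 1 circle per library, ordered by their mean in siC. PTN lies far to the right of all other members, and PDGFA, PDGFD, AXL and PTK7 show siMSI1 circles to the right of the siC circles while FGFR1 shows the opposite.

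Of the 50 members, 27 reached the mean of 0.5 FPKM required for testing (18 receptors and 9 ligands), and 23 did not. The ligands PDGFA and PDGFD and the receptors AXL and PTK7 rose upon MSI1 knockdown, each to about 2 times its control level, and the receptor FGFR1 fell to 56.0% of it. These 5 of the 27 tested members passed an adjusted p of 0.01 (limma), 4 higher and 1 lower. Among all 15069 genes tested, 11.0% passed (5.83% lower, 5.15% higher), and among protein-coding genes 13.1%, compared with 18.5% of the tested members, and the list itself was not tested. The median log2 fold change was 0.17 over the 27 tested members and 0.00 over all genes tested. The 3 siMSI1 values lay entirely above the siC values for 12 of the 27 and entirely below for 6. Such separation is common in these data, since 42.8% of all tested genes showed it in one direction or the other. Leaving out siC replicate 1 or siMSI1 replicate 1 lowered the count to 3, and in both cases PDGFD and AXL no longer passed.

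**Figure D2:**
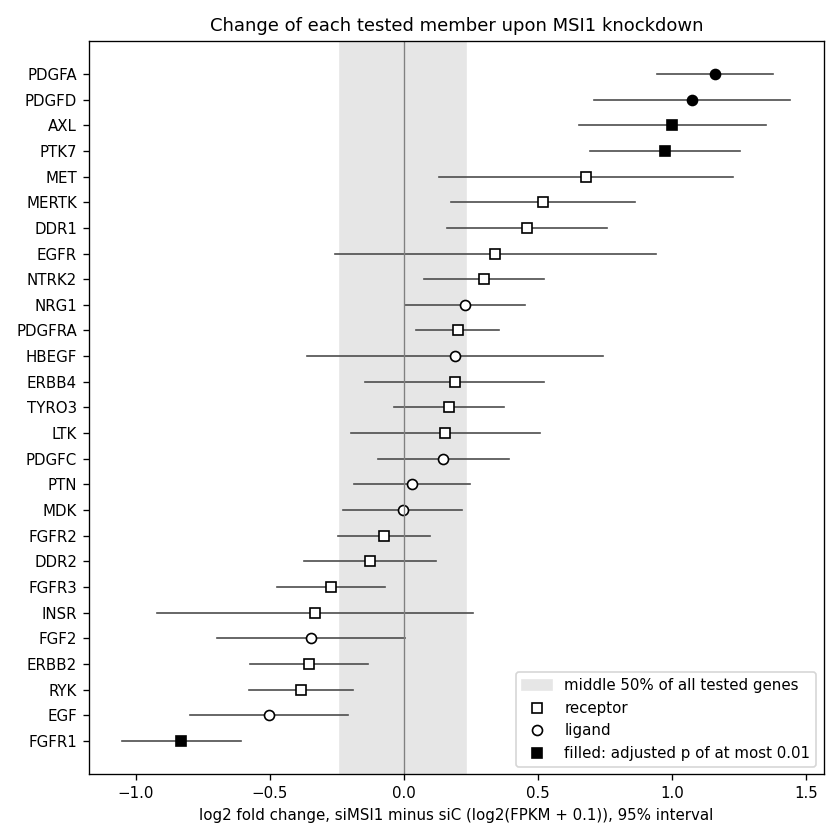
Log2 fold change of each tested member (siMSI1 minus siC, log2(FPKM + 0.1)) with its 95% interval. Squares are receptors, circles are ligands, filled symbols passed an adjusted p of 0.01, and the grey band holds the middle 50% of all tested genes. PDGFA, PDGFD, AXL and PTK7 form the upper end and FGFR1 the lower end, and their intervals lie outside the band.

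Because Musashi proteins recognize short UAG elements in single-stranded RNA, mostly in 3′UTRs, the sense strand of the longest annotated 3′UTR of each tested member was searched for UAG. It was present in 26 of 27 members (96.3%), against 95.9% of the 11291 tested genes with a 3′UTR, and the median density was 12.8 per kb in members and 11.3 per kb over all. The relation of this density to the fold change was not tested. AXL held 20.9 UAG per kb (percentile 98.3 of all), PTK7 15.9 (85.9), PDGFD 13.6 (68.8), FGFR1 8.03 (27.0) and PDGFA 4.59 (10.9). PTN, which stayed at 102.5% of its control level, held 21.0 UAG per kb (98.4). For the 4 members that rose, the 30-base stretch with the most UAG (the first of equal ones) is shown 5′ to 3′ with UAG in capitals. Each stretch was picked for its UAG, so it does not show the density of its 3′UTR. FGFR1, which fell, held 20 UAG in its 3′UTR, and no stretch of it is shown. PDGFA and PDGFD both show 2 UAG although their densities differ. The stretches lie in 3′UTR exons of GRCh38, for AXL at chr19:41260791-41260820 (plus strand), for PTK7 at chr6:43132926-43132955 (plus), for PDGFD at chr11:103909471-103909500 (minus) and for PDGFA at chr7:498039-498068 (minus). The PTK7 stretch lies well before the annotated 3′ end of that gene, at 43161719. This stretch and the PTK7 density come from the transcript with the longest annotated 3′UTR (882 bases) and may not describe other PTK7 transcripts. A match describes the letters and is not evidence of binding in these cells, and which 3′UTR KNS42 cells use was not tested.
AXL: uuaUAGauucuaaagauucuaUAGuucUAG
PTK7: agaggaaagagcaaUAGacUAGgaaucUAG
PDGFD: cuaagaauaUAGgauugcauuuaauaaUAG
PDGFA: aacuuUAGaaaccacaccuccucgcugUAG

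The study linked MSI1 to miR-143-3p and miR-27b-3p on another mRNA, so matches to the seeds of both (bases 2 to 8, in capitals; RefSeq, GRCh38.p14) were counted in the same 3′UTRs.
hsa-miR-143-3p: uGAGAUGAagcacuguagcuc
hsa-miR-27b-3p: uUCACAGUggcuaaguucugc
The match UCAUCUC to miR-143-3p was found in 6 of 27 members (22.2%, against 15.8% of all), namely DDR2, EGFR, ERBB4, NRG1, NTRK2 and TYRO3. The match ACUGUGA to miR-27b-3p was found in 7 (25.9%, against 19.3%), namely EGFR, HBEGF, INSR, MET, NRG1, NTRK2 and PDGFRA. EGFR carried the most, with 2 and 4 matches. None of these genes passed the threshold, and none of the 5 changed members held either match. Over all genes, 246 of 1785 with a match to miR-143-3p and 290 of 2177 with a match to miR-27b-3p passed, so 0 of 6 and 0 of 7 members is too few genes to read a difference from. The median log2 fold change of the members with a match was 0.21 for miR-143-3p and 0.23 for miR-27b-3p, beside 0.17 over all tested members and −0.02 over all genes with a match to either miRNA taken separately.

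The PDGF ligands are dimers that act through 2 receptors: PDGF-A and PDGF-C signal mainly through PDGFRA, PDGF-D mainly through PDGFRB, and PDGF-B through both. PDGFA (ENSG00000197461, chromosome 7 from 497258 to 520296 of GRCh38) was at 4.89, 4.05 and 4.76 FPKM in siC against 10.7, 9.81 and 10.4 FPKM in siMSI1. The groups were far apart, with a log2 fold change of 1.16 (SE 0.09, limma adjusted p = 0.000366), and the call held in all 15 alternative fits. PDGFD (ENSG00000170962, chromosome 11 from 103907189 to 104164379) was at 4.38, 4.83 and 3.24 FPKM in siC against 9.97, 8.58 and 7.80 FPKM in siMSI1. All siMSI1 values were above all siC values, and the log2 fold change was 1.08 (SE 0.16, limma adjusted p = 0.00294). Its adjusted p rose to 0.0116 without siC replicate 1, 0.0125 without siMSI1 replicate 1 and 0.0118 without siMSI1 replicate 2.

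The other PDGF ligands did not pass the threshold. PDGFC was at 4.17, 4.47 and 4.70 FPKM in siC against 5.40, 5.07 and 4.36 FPKM in siMSI1, with overlapping groups and a 95% interval of the log2 fold change from −0.10 to 0.39. PDGFB had 9 to 18 reads per library and was not tested. In control cells PDGFA, PDGFC and PDGFD were thus at similar levels, and after the knockdown PDGFA and PDGFD stood above PDGFC in each library. Family sums and shares, here and below, were chosen after the values were seen and contain the called genes. Their separation and p-values thus add no support beyond the calls. The 4 ligands summed to 13.4 ± 0.40 FPKM in siC and 24.2 ± 1.80 FPKM in siMSI1 (SD, n = 3 each; two-sided exact permutation p = 0.1, the lowest value possible with 3 against 3 libraries). The share of PDGFC in this sum was 33.2% ± 2.97 in siC and 20.4% ± 1.19 in siMSI1, again without overlap.

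Of the PDGF receptors, PDGFRA was at 24.3, 25.3 and 22.7 FPKM in siMSI1, each above the siC values of 20.6 to 21.5 FPKM. Its log2 fold change of 0.20 (95% interval 0.05 to 0.36, limma adjusted p = 0.0621) did not pass. PDGFRB, the main receptor of PDGF-D, was near the limit of detection in these cells, with 7, 16 and 10 reads in siC and 14, 33 and 24 reads in siMSI1. PDGFRB was thus not tested. Without the filter on low genes its adjusted p was 0.290.

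FGF receptors bind fibroblast growth factors together with heparan sulfate. FGFR1 (ENSG00000077782, chromosome 8 from 38400215 to 38468834) was at 11.4, 10.6 and 12.1 FPKM in siC against 6.25, 5.77 and 7.05 FPKM in siMSI1. Every siMSI1 value was below every siC value, and the log2 fold change was −0.83 (SE 0.10, limma adjusted p = 0.00113), with a call in all 15 alternative fits. In FPKM, FGFR1 was above FGFR2 and FGFR3 in each siC library. In siMSI1 its FPKM was below that of FGFR2 in each library and overlapped the values of FGFR3. Unscaled reads of FGFR1 stayed above those of FGFR2 in siMSI1, at 1170, 961 and 1286 against 792, 647 and 772. The share of FGFR1 in the summed FPKM of FGFR1 to FGFR4 was 42.5% ± 1.71 in siC and 31.9% ± 2.31 in siMSI1 (SD, n = 3 each, no overlap; two-sided exact permutation p = 0.1). Genes that overlap FGFR1 in the annotation were low, the highest being LETM2 on the opposite strand, at a mean of 1.28 FPKM in siC and 1.54 FPKM in siMSI1.

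FGFR3 was at 7.98, 7.87 and 7.84 FPKM in siC against 7.27, 6.17 and 6.18 FPKM in siMSI1. These groups were also apart, but the log2 fold change of −0.27 (95% interval −0.47 to −0.07) did not pass (limma adjusted p = 0.0551). FGFR2 was at 7.21, 7.42 and 7.16 FPKM in siC against 7.09, 6.51 and 7.09 FPKM in siMSI1, with a 95% interval of the log2 fold change from −0.24 to 0.10. FGFR4 had 6 to 18 reads per library. Of the FGF ligands on the list, FGF2 (basic FGF) was at 3.22, 3.70 and 2.64 FPKM in siC against 2.67, 2.59 and 2.15 FPKM in siMSI1. These values overlapped and the log2 fold change of −0.35 did not pass (limma adjusted p = 0.133). NUDT6 overlaps FGF2 on the opposite strand, at a mean of 0.708 FPKM in siC and 1.13 FPKM in siMSI1. FGF1 had 1 to 7 reads and FGF5 4 to 20 reads per library.

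FGFRL1, which binds FGFs but lacks the kinase domain, is on the list of receptor restraint and turnover. FGFRL1 was at 34.5, 32.0 and 36.0 FPKM in siC against 55.7, 50.4 and 60.4 FPKM in siMSI1, and rose by a log2 fold change of 0.70 (SE 0.08, limma adjusted p = 0.00134). The ratio of FGFRL1 to FGFR1 was 3.03, 3.02 and 2.98 in siC and 8.90, 8.74 and 8.56 in siMSI1.

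AXL, TYRO3 and MERTK are the TAM receptors, known for the clearance of dying cells and for resistance of tumor cells to therapy. The ligands of this family are GAS6 and protein S. AXL (ENSG00000167601, chromosome 19 from 41219223 to 41261766) was at 3.35, 2.72 and 3.33 FPKM in siC against 6.65, 5.17 and 7.46 FPKM in siMSI1. The groups did not overlap, although the siMSI1 values spread widely, and the log2 fold change was 1.0 (SE 0.15, limma adjusted p = 0.00328). The adjusted p was 0.0125, 0.0111 and 0.0107 without siC replicates 1, 2 and 3, and 0.0151 without siMSI1 replicate 1. MERTK was at 1.21, 1.20 and 1.12 FPKM in siC against 1.83, 1.49 and 1.88 FPKM in siMSI1, with a log2 fold change of 0.52 (95% interval 0.17 to 0.86) that did not pass (limma adjusted p = 0.0387). TYRO3, the highest of the 3 in control cells, was at 7.98, 7.55 and 7.56 FPKM in siC against 8.0, 8.38 and 9.67 FPKM in siMSI1, with a 95% interval from −0.04 to 0.37.

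The share of AXL in the summed FPKM of the TAM receptors was 26.1% ± 2.07 in siC and 38.0% ± 3.19 in siMSI1 (SD, n = 3 each, no overlap; two-sided exact permutation p = 0.1). Their ligand GAS6 was close to absent, at 9 to 17 reads in the siC libraries and 0 to 9 in the siMSI1 libraries. PROS1, which encodes protein S and was on the list of other ligands, was the TAM ligand that these cells expressed. Whether protein S acts on AXL in these cells was not tested. PROS1 was at 4.97, 6.38 and 5.05 FPKM in siC against 9.68, 9.37 and 8.11 FPKM in siMSI1, a rise of 0.72 on the log2 scale (SE 0.12, limma adjusted p = 0.00472). The adjusted p of PROS1 was 0.0241 without siC replicate 1, 0.0188 without siC replicate 3, 0.0206 without siMSI1 replicate 1 and 0.0198 without siMSI1 replicate 2.

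PTK7, RYK, ROR1 and ROR2 take part in Wnt signaling, and PTK7 and RYK have kinase domains without normal catalytic activity. PTK7 (ENSG00000112655, chromosome 6 from 43076307 to 43161719) was at 3.62, 3.31 and 3.98 FPKM in siC against 6.45, 6.94 and 8.40 FPKM in siMSI1. Every siMSI1 value was above every siC value, with a log2 fold change of 0.97 (SE 0.12, limma adjusted p = 0.00148) and a call in all 15 alternative fits. RYK was at 5.38, 5.28 and 5.84 FPKM in siC against 4.27, 4.26 and 4.04 FPKM in siMSI1. These groups were also apart, in the other direction, but the log2 fold change of −0.38 (95% interval −0.58 to −0.19) missed the threshold (limma adjusted p = 0.0143). RYK was above PTK7 in every siC library and below it in every siMSI1 library. ROR1 had 12 to 25 reads and ROR2 0 to 4 reads per library.

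**Figure D3:**
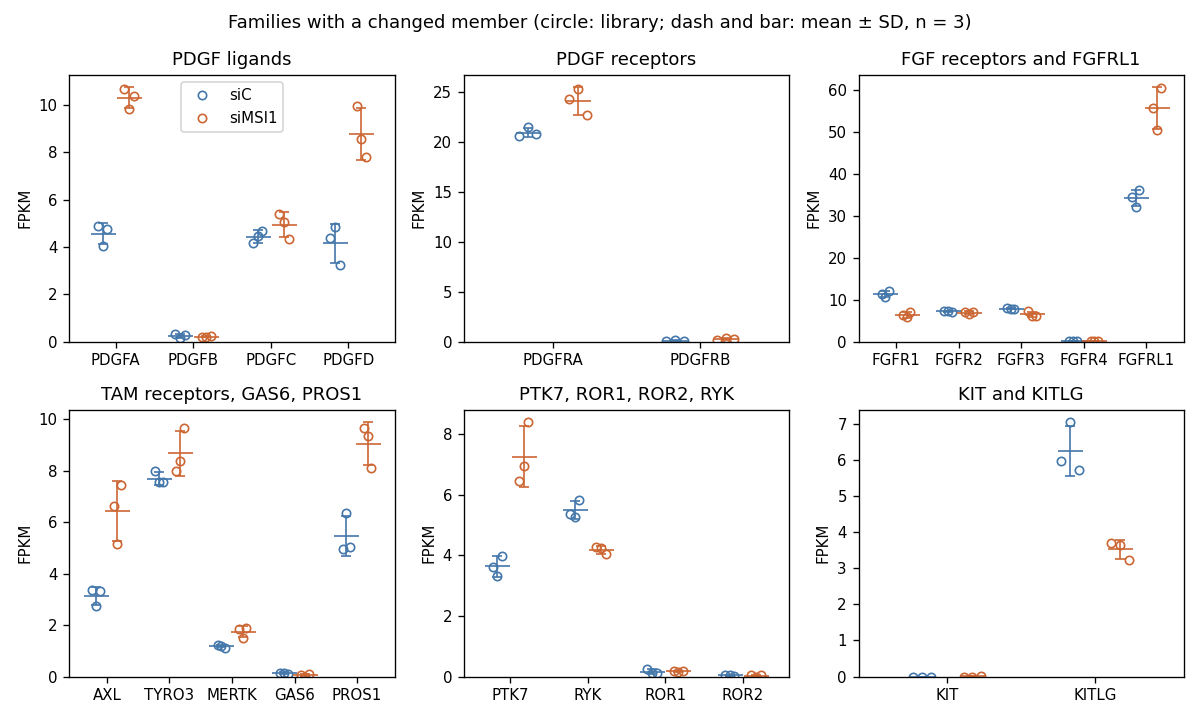
FPKM in each library (circles) with mean and SD (n = 3) for the families that hold a changed member, with FGFRL1, PROS1, KIT and KITLG. PDGFA, PDGFD, AXL, PTK7, FGFRL1 and PROS1 were higher and FGFR1 and KITLG lower in siMSI1, while PDGFRB, GAS6 and KIT lie close to 0 in both groups.

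In the EGF receptor family no member passed. ERBB2, the co-receptor without a ligand of its own, was the highest, at 4.88, 4.34 and 4.53 FPKM in siC against 3.50, 3.36 and 3.83 FPKM in siMSI1, with groups apart and a log2 fold change of −0.35 (95% interval −0.58 to −0.13, limma adjusted p = 0.0310). PGAP3, on the opposite strand and overlapping ERBB2, was at a mean of 4.75 FPKM in siC and 2.77 FPKM in siMSI1 and passed the threshold as lower (log2 fold change −0.76, limma adjusted p = 0.00121), and MIEN1, also on the opposite strand, was at 25.5 and 21.0 FPKM. Reads of these genes and ERBB2 cannot be told apart if strand was not used in counting. ERBB4, a receptor for neuregulins, had means of 1.75 FPKM in siC and 2.01 FPKM in siMSI1, EGFR of 0.532 and 0.696 FPKM, and ERBB3 had 7 to 12 reads per library.

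Of its ligands, EGF was the highest, at 9.74, 9.67 and 8.21 FPKM in siC against 6.64, 7.41 and 5.43 FPKM in siMSI1. The EGF groups were apart, and the log2 fold change of −0.50 (95% interval −0.80 to −0.21) did not pass (limma adjusted p = 0.0243). NRG1, a ligand of ERBB3 and ERBB4, was at 3.59, 3.46 and 3.12 FPKM in siC against 3.83, 4.18 and 3.92 FPKM in siMSI1 (limma adjusted p = 0.127). HBEGF had 25 to 43 reads per library and overlapped between groups. TGFA (9 to 17 reads), EREG (7 to 34 reads) and AREG (at most 1 read) were not tested.

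The remaining tested members also stayed below the threshold. MET, the receptor of HGF, was at 0.740, 0.801 and 0.533 FPKM in siC against 1.45, 0.997 and 1.06 FPKM in siMSI1, with a log2 fold change of 0.68 and a wide interval from 0.13 to 1.23 (limma adjusted p = 0.0720). HGF itself had at most 2 reads in any library. DDR1, like DDR2 a receptor for collagen, was at 7.14, 6.79 and 8.23 FPKM in siC against 8.65, 10.2 and 11.9 FPKM in siMSI1 (log2 fold change 0.46, limma adjusted p = 0.0357). DDR2 was at 10.1, 9.58 and 8.04 FPKM in siMSI1, overlapping its control values, with an interval from −0.37 to 0.12. The neurotrophin receptor NTRK2 was at 3.22, 3.61 and 3.09 FPKM in siC against 4.05, 4.23 and 3.96 FPKM in siMSI1 (log2 fold change 0.30, limma adjusted p = 0.0586), while its ligand BDNF had at most 8 reads. INSR, the insulin receptor, had means of 0.851 and 0.663 FPKM, with overlapping groups.

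PTN and MDK (midkine) form a family of heparin-binding growth factors and have been reported as ligands of ALK. PTN was at 148.8, 164.2 and 130 FPKM in siMSI1, on both sides of its control values, with a 95% interval of the log2 fold change from −0.19 to 0.25. MDK was at 6.47, 7.25 and 7.53 FPKM in siC against 6.40, 7.40 and 7.39 FPKM in siMSI1, with an interval from −0.23 to 0.22. ALK had 1 to 6 reads per library. Its relative LTK was expressed, at 2.68, 2.95 and 3.72 FPKM in siC against 3.71, 2.95 and 3.73 FPKM in siMSI1, with overlapping groups.

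Among the 23 members that were not tested, 14 are receptors and 9 are ligands. KIT, MST1R, HGF, AREG and the VEGF receptors FLT1, KDR and FLT4 had at most 3 reads in every library, so no difference could be detected with so few reads. The highest untested member was TEK, the angiopoietin receptor, at means of 0.427 and 0.465 FPKM. NTRK3 had 19 to 25 reads in siC and 32 to 52 reads in siMSI1, without overlap, and without the filter on low genes its adjusted p was 0.481 (limma). RET had 2 to 13 reads per library.

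Of 64 other receptors, co-receptors and ligands found in the table, 15 were tested and 3 passed (20%, beside 11.0% of all tested genes), with PROS1 higher and KITLG and LMTK2 lower. KITLG, the ligand of KIT, fell from 5.97, 7.05 and 5.74 FPKM in siC to 3.71, 3.66 and 3.22 FPKM in siMSI1 (log2 fold change −0.80, SE 0.11, limma adjusted p = 0.00214). KITLG missed the threshold without siC replicate 1 (adjusted p = 0.0110). KIT itself had 0 reads in all siC libraries and 1 read in all siMSI1 libraries together. LMTK2, a membrane-anchored kinase, had means of 8.17 and 5.73 FPKM (log2 fold change −0.50, limma adjusted p = 0.00391). LMTK2 missed the threshold without siC replicate 1, 2 or 3 or siMSI1 replicate 1 or 2 (adjusted p from 0.0106 to 0.0260). The count of 3 was 0 without siC replicate 1 and 1 without siC replicate 3, siMSI1 replicate 1 or siMSI1 replicate 2.

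Downstream of the receptors, 37 of 43 relay genes were tested and 4 passed (10.8%, near the 11.0% of all tested genes), 2 lower and 2 higher, with a median log2 fold change of −0.07. FYN, a SRC family kinase, had means of 27.6 ± 0.84 FPKM in siC and 14.7 ± 0.82 FPKM in siMSI1 (log2 fold change −0.91, limma adjusted p = 0.000281). This call held in all 15 alternative fits. AKT2, a kinase of the PI3K pathway, had a log2 fold change of −0.37, KSR1, a scaffold of the ERK cascade, of 0.44, and PIK3R3, a regulatory subunit of PI3K, of 0.46. AKT2, KSR1 and PIK3R3 passed with adjusted p-values from 0.00811 to 0.00886 (limma). None of them passed without siC replicate 1, 2 or 3 or without siMSI1 replicate 1 or 2, where the count of relay genes was 1. With the replicate number as a block, KSR1 (limma adjusted p = 0.0109) and PIK3R3 (0.0121) also missed the threshold.

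A further list covered receptor restraint and turnover, and its genes are called restraint genes for short. Not all of them restrain receptors, since the list also holds proteases such as ADAM17 and ST14. Of its 32 genes, 23 were tested and 6 passed (26.1%, beside 11.0% of all tested genes and 13.1% of protein-coding genes). Of these 6, 3 were higher and 3 lower, and the median log2 fold change over the 23 was 0.10. Besides FGFRL1, the higher ones were LRIG1, a membrane protein that promotes the loss of EGF receptors, at means of 11.1 ± 0.44 FPKM in siC and 15.97 ± 0.288 FPKM in siMSI1 (log2 fold change 0.52, limma adjusted p = 0.00144), and GRB10, an adaptor that dampens insulin receptor signaling (0.46, adjusted p = 0.00559). The lower ones were the endosomal sorting adaptor STAM, at means of 11.5 ± 1.05 and 6.12 ± 0.34 FPKM (−0.89, adjusted p = 0.000686), the phosphatase gene PTPN1 (−0.49, adjusted p = 0.00509) and EPS15, a part of endocytic coats (−0.49, adjusted p = 0.00895), all from limma. The count was 2 without siC replicate 1 and 3 without siC replicate 2, siC replicate 3 or siMSI1 replicate 1. LRIG1 had an adjusted p of 0.0123 without siC replicate 1, GRB10 and EPS15 missed the threshold without any one of the 6 libraries (0.0120 to 0.0485), and PTPN1 missed it without siC replicate 1, 2 or 3 or siMSI1 replicate 1 (0.0150 to 0.0295).

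**Figure D4:**
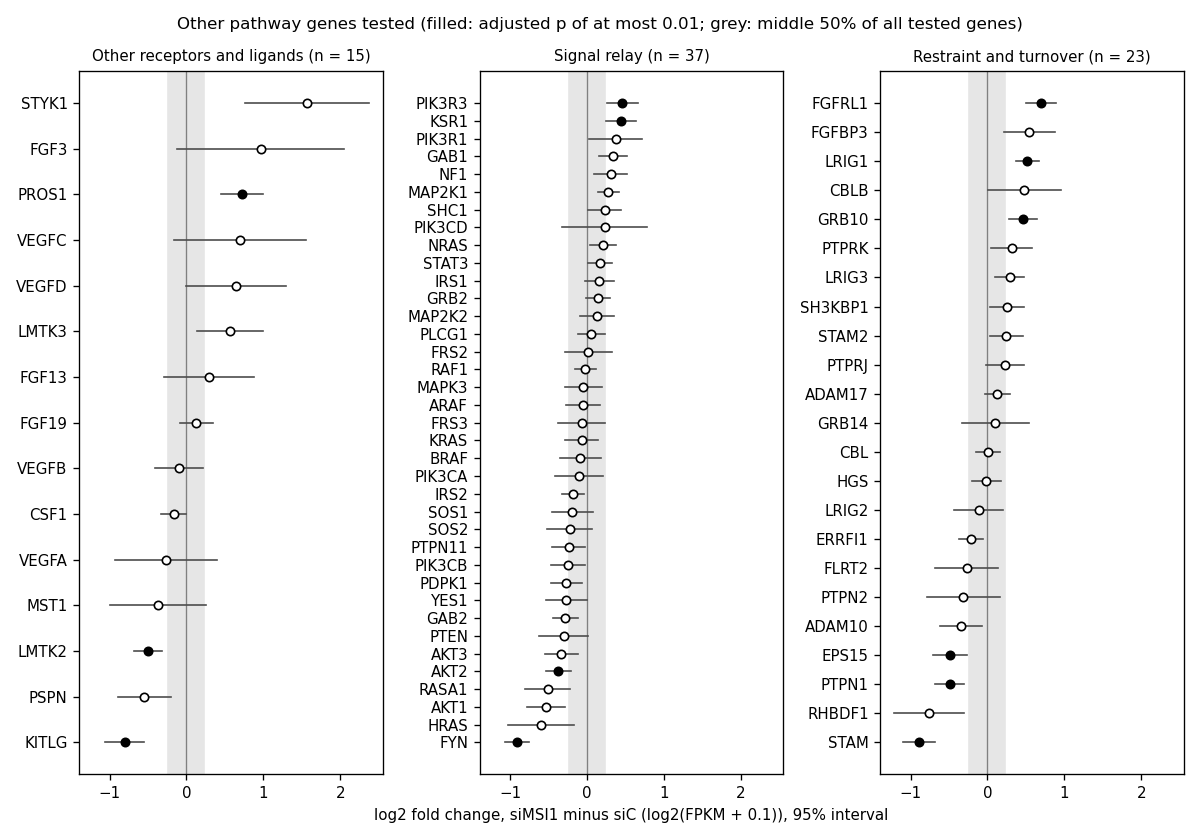
Log2 fold changes with 95% intervals of the tested genes of 3 further lists: 15 other receptors and ligands, 37 relay genes and 23 genes of restraint and turnover. Filled circles passed an adjusted p of 0.01 and the grey band holds the middle 50% of all tested genes. FYN is the lowest relay gene, KITLG is the lowest other ligand, and FGFRL1 is the highest and STAM the lowest of the last list.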

How the data were processed

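The mRNA-seq libraries were made from poly(A) RNA with a strand-specific protocol, and the study names Novogene as the provider of the mRNA-seq. Per the labels and the study's methods, reads were clipped with cutadapt 1.14, aligned to GRCh38 with HISAT2 2.1.0, counted per gene with featureCounts 1.5.3 on an Ensembl annotation and compared with edgeR 3.18.1. Whether strand was used in counting is not given in the sources used here. The authors deposited FPKM per gene and library, with the gene length in bases and with their own fold changes and p-values, which were not used. FPKM times length gave whole reads for 100% of values above 0 (tolerance 0.02). Reads on genes per library bound the precision, and read counts cover counting error only.

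The main test was limma 3.58.1 (R 4.3.3; lmFit, eBayes with trend and robust) on log2(FPKM + 0.1) of genes with a mean of at least 0.5 FPKM, with Benjamini-Hochberg adjustment over all of them and a threshold of 0.01. Fold changes on this scale understate those of low genes. Members, lists and the rule for named genes (members that passed or reached 10 FPKM, their families, and changed genes of the other lists, up to 6 a list) were chosen with earlier results of these data known. Family shares and sums were chosen after the values were seen. The fits were tested on 10 simulated data sets, where a part of the changed genes was missed at every simulated size, 4-fold changes included, and more of them at smaller sizes. Positions and 3′UTRs came from GENCODE release 44, where 98.7% of gene identifiers were found, and miRNA sequences from RefSeq (GRCh38.p14). Alternatives were 2 other added values, 2 other filters, 2 other scalings, plain moderation, a threshold of 0.05, a replicate block, voom on recovered reads and leaving out each library. Tables were handled in Python 3.11.15 (pandas 2.3.3), permutation tests ran in SciPy 1.17.1, and plots were drawn with matplotlib 3.10.9. A gene of the relay list is not reported here and was left out of its counts.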

Additional observations from a re-analysis of the deposited data

How the results depend on the processing

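MSI1 kept its direction and its call in all 15 alternative fits and at a threshold of 0.05. The 5 called members kept their direction in all alternatives, and PDGFA, FGFR1 and PTK7 their call. With no filter on low genes, 3 members, 1 relay gene, 3 restraint genes and 1 other receptor or ligand passed. With plain variance moderation the counts were 3 members, 1 relay gene and 3 restraint genes. With limma's voom on recovered reads 9 members (4 lower, 5 higher) and 8 relay genes passed, and at a threshold of 0.05 it was 10 members (4 lower, 6 higher), 11 relay genes and 5 other receptors or ligands. When each library was left out in turn, 3 to 5 members, 1 to 3 relay genes, 2 to 4 restraint genes and 0 to 3 other receptors or ligands passed. The share of all genes that passed is given for the main fit only. Counts under the other settings, here and below, thus have no such share to be weighed against.

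Replicate numbers are shared between the groups, and no source states whether they pair the samples. The deviations of same-numbered libraries correlated at −0.07, 0.08 and 0.08, and those of differently numbered libraries at −0.14 to 0.07. These correlations show no pairing but cannot exclude it, and the main test left it out. With the replicate number as a block, 7 members passed, with EGF (adjusted p = 0.0045 from limma) and DDR1 (0.0092) added. The block gave 6 relay genes (5 lower, 1 higher), of which 2 were among the 4 called without it, and KSR1 (0.0109) and PIK3R3 (0.0121) lost their call. The restraint genes (6) and the other receptors and ligands (3) kept the same genes. Of the members near 0 change, PTN had a log2 fold change of −0.0322 with quantile normalization and −0.0501 to 0.118 when a library was left out. MDK had 0.00694 with median centring, 0.00746 with quantile normalization and −0.0681 to 0.0634 when a library was left out. The 23 members not tested were left out by the filter on FPKM, and some of them, such as TEK (22 to 40 reads), had about as many reads as HBEGF (25 to 43), which was tested.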
